A study of Mus musculus with 9 samples.

Results

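The transient day 30 state describes how microglial transcripts at 30 days after a brain injury stood against both 7 and 90 days, the earlier and the later end of the time course. Each gene was scored as its day 30 mean minus the average of its day 7 and day 90 means, on log2(CPM + 1), where CPM is the read count scaled to a library total of 1000000. This score is called the day 30 difference here. A gene was scored where 3 or more of the 9 libraries reached 1 CPM, which holds for 15041 of the 49671 genes listed. A score above or below 0 does not by itself make a peak or a dip, since a gene that changes only early or only late also moves it. The day values or the order of the day means are therefore given for the named genes and the main gene lists. A median given alone does not show a peak or a dip.

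Microglia were sorted from the brains of male C57BL/6 (CD45.2) mice that had received bone marrow from CD45.1 donors at 8 weeks of age, after 1000 cGy of irradiation with the head shielded and busulfan at 30 mg/kg. At 16 weeks the chimeras received a controlled cortical impact, in which a piston strikes the brain through an opening in the skull. Mice were killed 7, 30 or 90 days later, with 3 mice and 1 library each per day. All 3 groups therefore share the irradiation, busulfan, transplant and injury, and no sham-operated or uninjured mice were analysed here. Sorting on CD45.2 leaves out cells derived from the donor marrow, but by itself it does not separate microglia from other CD45.2 cells of the host.

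Microglia are the resident macrophages of the brain. After injury they leave a homeostatic program, which senses purines and fractalkine, for reactive programs of phagocytosis, lipid handling and interferon response, and they can return towards homeostasis over weeks. A transient state would appear as genes whose level at the middle time lies beyond both ends.

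Between 7210985 and 12965926 reads were assigned to genes per library, and 3 reads corresponded to between 0.231 and 0.416 CPM. Genes with at least 1 read numbered 17334, 16443 and 14898 in day 30 replicates 3, 4 and 2, against 14039 to 16513 in the other 6 libraries. Microglial markers were abundant in every library, with 3926 to 9024 CPM of the fractalkine receptor gene Cx3cr1 and 284 to 374 CPM of Ptprc, which encodes CD45. Transcripts of other brain cells were present too. Ttr, the transthyretin gene that defines choroid plexus epithelium, had 7028 to 9876 CPM at day 30, 8166 to 9595 CPM at day 7 and 7946 to 24476 CPM at day 90. The highest of these values came from day 90 replicate 1, which lay at 126.6 on the first principal component (21.2% of the variance), where the other 8 libraries lay between -22.9 and -3.13. In bulk RNA, fewer cells of a type and less RNA per cell cannot be told apart.

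No gene passed the threshold for the day 30 difference. With limma, 0 of 15041 genes (0%) had an adjusted p under 0.05, and the smallest adjusted p was 0.479. At an unadjusted p under 0.05 there were 728 genes (4.84% of those tested), with 448 higher (2.98%) and 280 lower (1.86%) at day 30. By the order of the means, 443 of the 728 stood above both ends, 279 below both and 6 between them. Over all genes tested, the day 30 mean lay above both ends in 36.0%, below both in 27.7% and between them in 36.3%, and 55.1% had a positive difference. edgeR on the whole reads recovered from the table also called 0 genes, with 591 (3.93%) at an unadjusted p under 0.05, and DESeq2 called 12 (0.0798%), 9 of them higher (0.0598%), with 717 (4.77%) unadjusted. The values of peaks and dips that follow therefore describe genes that did not pass in limma, and none is given as a change.

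A stricter reading asked that day 30 differ from each end on its own. It was met at an unadjusted p under 0.05 in both comparisons by 125 genes (0.831% of those tested), 74 higher (0.492%) and 51 lower (0.339%), and by 0 genes with the larger of the 2 p-values adjusted. Leaving out 1 library at a time gave 90 to 177 genes, the fewest when day 90 replicate 1 was left out and the most when day 90 replicate 4 was. Both comparisons share the day 30 libraries. In 213 genes (1.42%) the 3 day 30 libraries lay wholly above the other 6, and in 113 (0.751%) wholly below. Of the 213, 25 reached 1 CPM in the 3 day 30 libraries and in no other. These passed the filter through the day 30 libraries alone, which a gene wholly below cannot do. The counts above and below therefore do not compare peaks with dips on equal terms.

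**Figure D1:**
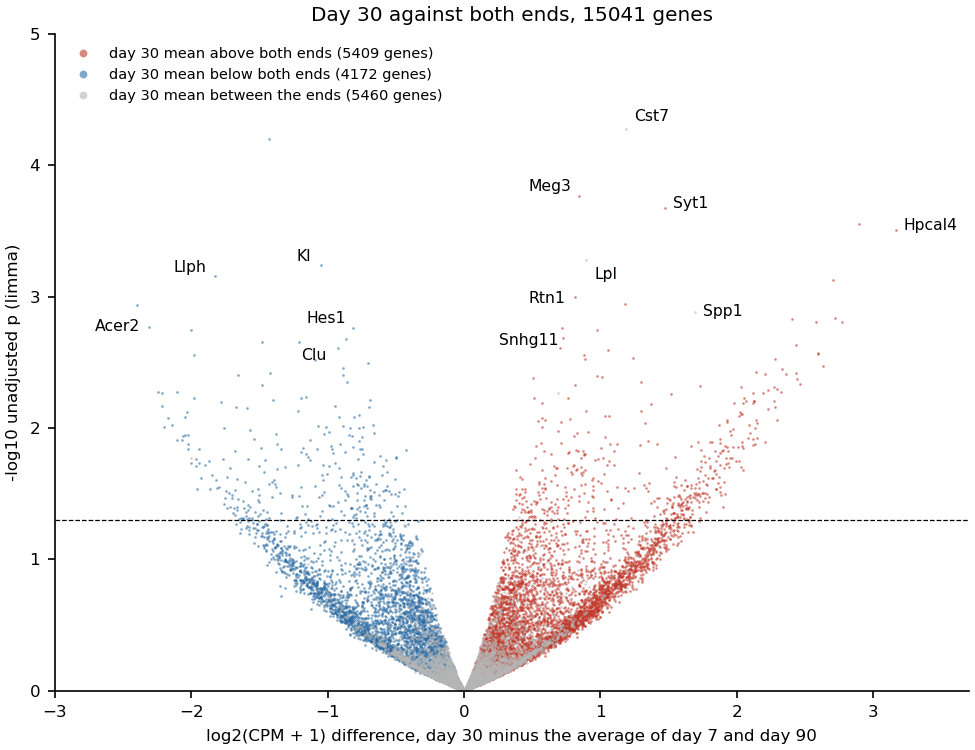
Each point is 1 of the 15041 genes, by its day 30 difference in log2(CPM + 1) (horizontal axis) and the -log10 of its unadjusted limma p (vertical axis), and the dashed line marks an unadjusted p of 0.05. Genes with the day 30 mean above both ends are red, below both blue and between them grey; Meg3 and Syt1 lie among the peaks and Kl and Hes1 among the dips, while Cst7, Lpl and Spp1 score high with a mean between the ends.

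Transcripts known from neurons were among the named peaks with the smallest p. Meg3, a long non-coding RNA of the imprinted Dlk1-Dio3 region that is abundant in neurons, had 856, 969 and 1010 CPM at day 7, 1184, 1663 and 2528 CPM at day 30, and 736, 876 and 1387 CPM at day 90. The highest day 90 library lay above the lowest day 30 library, so the groups overlapped by that 1 value. The day 30 difference of Meg3 (ENSMUSG00000021268, mm10 chromosome 12, 109541001 to 109571726, plus strand) was 0.84 ± 0.20 (SE; limma adjusted p = 0.774). Its differences from day 7 and from day 90 were 0.86 and 0.82, nearly equal. DESeq2 put it at an adjusted p of 0.0496, the lowest value in a range up to 1 over 21 alternatives. Without day 30 replicate 4, its highest library, the difference was 0.56.

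Syt1 encodes synaptotagmin 1, the calcium sensor of synaptic vesicle release. It had 22.9, 16.5 and 26.4 CPM at day 7, 55.0, 76.4 and 81.5 CPM at day 30, and 15.4, 26.7 and 52.9 CPM at day 90. All 3 day 30 libraries lay above the other 6, although day 90 replicate 4 came within about 2 CPM of the lowest of them. The day 30 difference of Syt1 (ENSMUSG00000035864, chromosome 10, 108497650 to 109010982, minus strand) was 1.47 ± 0.36 (limma adjusted p = 0.774), with 1.65 against day 7 and 1.29 against day 90. Leaving out 1 library at a time kept it between 1.27 and 1.69.

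Hpcal4, a member of the neuronal calcium sensor family, had 0 reads in all 3 day 7 libraries, 11.1, 20.8 and 14.5 CPM at day 30, and 0, 2.18 and 9.22 CPM at day 90. Summed over the 3 libraries of a day, these were 0, 542 and 132 reads. Its limma adjusted p was 0.774. Its fitted difference ran from 1.67 with a pseudocount of 5 CPM to 6.20 with edgeR on whole reads. On log2 values, a gene at 0 takes the size of its difference from the pseudocount. DESeq2 put Hpcal4 at an adjusted p of 0.0162, the only 1 of 21 alternatives that called it. Mirg, a non-coding RNA of the same imprinted region as Meg3 (chromosome 12, 109729764 to 109749460), stood at 2.44, 0.139 and 0 CPM at day 7, 13.1, 8.16 and 16.1 CPM at day 30, and 0, 7.69 and 0.423 CPM at day 90. Rian, a transcript that lies between Meg3 and Mirg and was looked up after their values were seen, had 8.95, 17.5 and 15.03 CPM at day 7, 8.18, 23.2 and 6.75 CPM at day 30, and 14.5, 3.80 and 7.53 CPM at day 90, with a difference of 0.11 ± 0.60. The differences between these 3 transcripts of chromosome 12 were not tested, and the error of Rian is too wide to set its time course apart from that of Meg3.

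Snhg11, a non-coding RNA that hosts small nucleolar RNAs and is rich in neurons, had 131, 172 and 154 CPM at day 7, 183, 325 and 335 CPM at day 30, and 141, 182 and 223 CPM at day 90 (difference 0.72 ± 0.21). Its day 30 replicates 3 and 4 stood above the libraries of the other days, and replicate 2 stood among them. Nrxn3, a presynaptic adhesion gene, stood at 30.3, 64.5 and 42.0 CPM, then 57.9, 90.2 and 56.9 CPM, then 20.3, 11.5 and 56.1 CPM at days 7, 30 and 90, and day 7 replicate 3 reached the day 30 range. Snap25, whose product drives vesicle fusion, averaged 38.4, 63.4 and 29.7 CPM over the 3 days, and Map2, a protein of dendritic microtubules, averaged 20.5, 42.8 and 32.1 CPM. These last 2 genes were chosen after their values were seen, to complete the neuronal transcripts with an unadjusted p under 0.05.

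This and the other gene lists were chosen with earlier results of these data known. Their counts beside those of all genes are therefore descriptions and not tests. Among the 20 neuronal markers, the day 30 mean lay above both ends in 17 members and below both in 0, against 36.0% and 27.7% of all genes tested. The median day 30 difference was 0.56, beside 0.057 over all genes tested, and it came from both sides, with medians of 0.64 against day 7 and 0.53 against day 90. Of the 20, 6 were higher at an unadjusted p under 0.05 (2.98% of all genes), and 3 of them, Meg3, Syt1 and Snhg11, differed from each end on their own (0.492% of all genes). Over 18 alternatives the median ran from 0.44 without day 30 replicate 4 to 0.75 with array quality weights. Rbfox3, Gad1 and Atp1b1 were the 3 members with a day 30 mean between the ends.

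The summed level of these 20 markers was 1939, 2680 and 3688 CPM in day 30 replicates 2, 3 and 4, against 1385, 1621 and 1618 CPM at day 7 and 1306, 1492 and 2243 CPM at day 90. Meg3 made up much of it. Without Meg3 the other 19 summed to 755, 1017 and 1161 CPM at day 30, against 529, 652 and 608 CPM at day 7 and 570.5, 615.5 and 856 CPM at day 90. On both sums the lowest day 30 library lay below the highest day 90 library, replicate 4. The 2 day 30 libraries with the highest neuronal sums, replicates 4 and 3, were also among the 3 libraries with the most genes detected, with day 90 replicate 4 as the third. Neurons do not carry CD45, and the part of neuronal RNA in these peaks was not tested.

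Of the other named peaks, Rtn1, an endoplasmic reticulum protein of the reticulon family, is also known from neurons. It had 67.0, 78.2 and 92.4 CPM at day 7, 167, 187 and 135 CPM at day 30, and 78.7, 123 and 126 CPM at day 90, a difference of 0.81 ± 0.23. Every day 30 library was above every other, by a narrow margin over day 90 replicates 3 and 4. Wasf3, which drives actin branching, had 12.4, 16.5 and 8.15 CPM at day 30, against at most 6.24 CPM in the other 6 libraries.

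**Figure D2:**
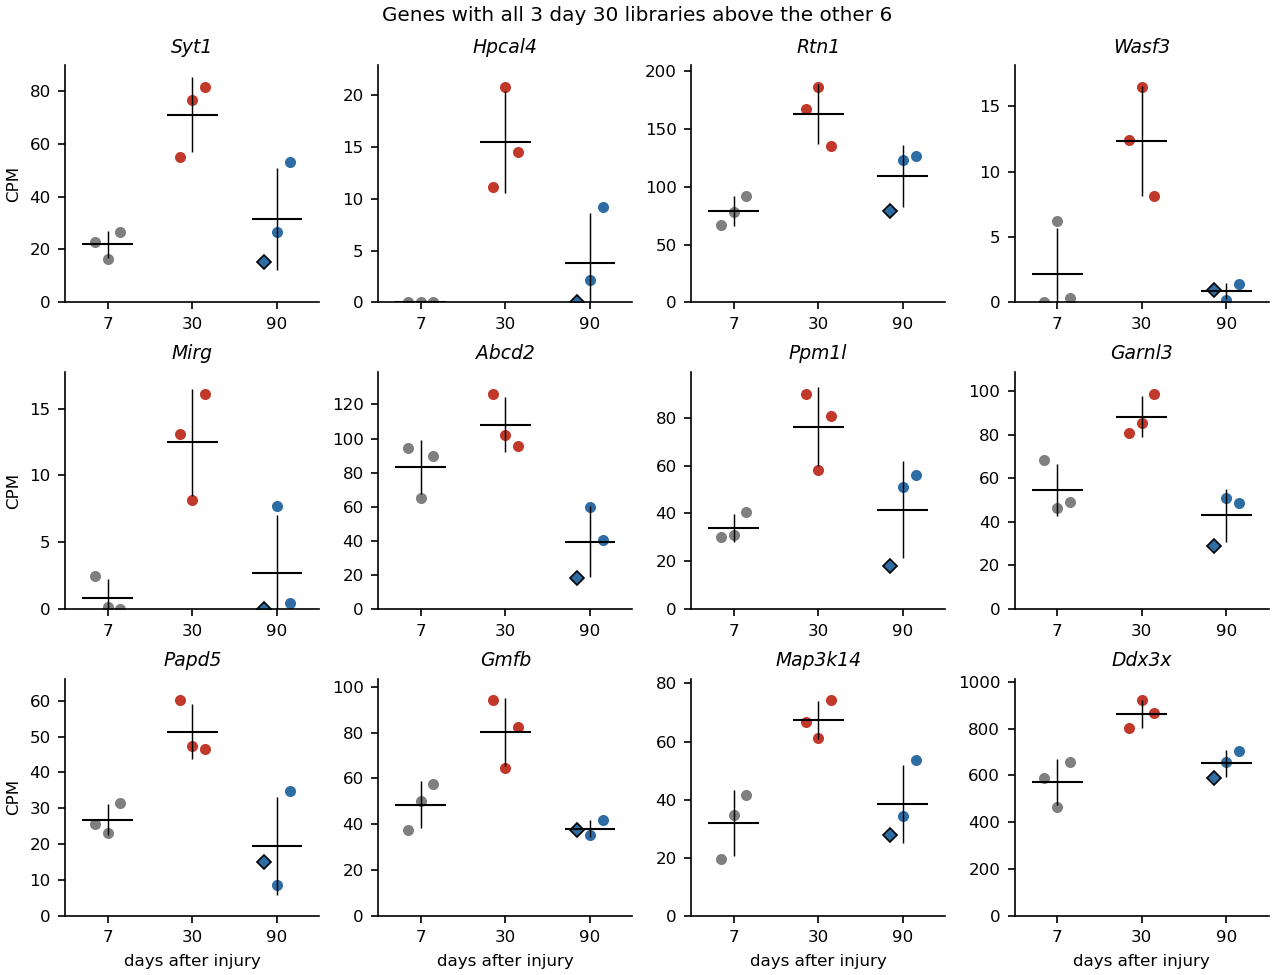
CPM (vertical axes) by days after injury (horizontal axes) for the 12 named peaks, with 1 point per library, a bar for the mean and a line for 1 SD (n = 3 per day); the diamond is day 90 replicate 1. The genes were chosen for having all 3 day 30 points above the other 6. The margin is narrow in Syt1, Mirg, Abcd2 and Ppm1l, and Hpcal4 is at 0 in every day 7 library.

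A second set of peaks holds genes with general roles and higher counts. Ddx3x, an RNA helicase of translation, had 589, 464 and 658 CPM at day 7, 802, 922 and 866 CPM at day 30, and 590, 660 and 707 CPM at day 90. The day 30 libraries were separate from the rest and close to one another, and the difference was 0.51 ± 0.17 (limma adjusted p = 0.965). Map3k14, the kinase NIK of the non-canonical NF-kB pathway, stood at 19.4, 34.8 and 41.6 CPM at day 7, 66.6, 61.1 and 74.2 CPM at day 30, and 27.7, 34.4 and 53.6 CPM at day 90 (difference 0.97 ± 0.32). Gmfb, an actin regulator, had 94.2, 64.6 and 82.6 CPM at day 30 and 35.1 to 57.7 CPM in the other 6 libraries. Papd5, a poly(A) polymerase, had 60.2, 47.5 and 46.5 CPM at day 30 and 8.54 to 34.8 CPM elsewhere.

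Garnl3, Ppm1l and Abcd2 completed the 12. Garnl3, with a GTPase-activating domain, averaged 54.7 ± 11.8, 88.3 ± 9.37 and 42.95 ± 12.1 CPM over days 7, 30 and 90 (SD, n = 3 each). Ppm1l, a protein phosphatase, averaged 33.95 ± 5.89, 76.3 ± 16.5 and 41.65 ± 20.5 CPM. Abcd2 carries very long fatty acids into peroxisomes, and it leaned to 1 side, with 94.5, 65.0 and 90.0 CPM at day 7, 126, 102 and 95.9 CPM at day 30, and 18.4, 59.7 and 40.5 CPM at day 90. Its difference from day 90 was 1.57 and that from day 7 only 0.38.

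Homeostatic microglia genes stood slightly high at day 30. Of the 29 members tested, 15 had a day 30 mean above both ends (36.0% of all genes) and 1 below both (27.7%). The median difference was 0.21, and 5 members were higher at an unadjusted p under 0.05 (2.98% of all genes). The difference lay mainly against day 7, with a median of 0.30, while the median against day 90 was 0.06, about that of all genes tested (0.06). P2ry12, the purine receptor that directs microglial processes to injury, had 1002, 767 and 1031 CPM at day 7, 1117, 1657 and 1101 CPM at day 30, and 1099, 1062 and 976 CPM at day 90. All 3 day 30 libraries were above the other 6, but replicate 4 exceeded day 90 replicate 1 by about 2 CPM, and the difference of 0.37 ± 0.17 was 0.17 without day 30 replicate 3.

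Tmem119, a membrane protein specific to microglia, had 975, 751 and 796 CPM, then 1167, 1304 and 1126 CPM, then 796, 1111 and 1160 CPM at days 7, 30 and 90, and its day 30 and day 90 ranges overlapped. P2ry13, another purine receptor gene, averaged 1091, 1735 and 1626 CPM, and its difference from day 90 was 0.09. Trem2, the lipid-sensing receptor, and Mef2c, a transcription factor of microglial identity, joined P2ry12 as the 3 members with every day 30 library above the other 6, against 1.42% of all genes tested. Trem2 had 1314, 1342 and 1297 CPM at day 30, against 835 to 1295 CPM in the other 6, with a difference of 0.21 ± 0.17 that was 0.11 without day 90 replicate 1. Cx3cr1 did not peak, with means of 4577, 5864 and 7151 CPM over the 3 days and a difference of 0.06 that took a negative sign under 4 alternatives. The summed level of the list was 62390 to 63570 CPM at day 30, against 48260 to 53570 CPM at day 7. At day 90 it was 53470, 65770 and 64350 CPM in replicates 1, 3 and 4, so replicates 3 and 4 lay above every day 30 library. Without day 90 replicate 1 the median difference of the list was 0.16, and 13 of 29 members stood above both ends.

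Microglial genes linked by human genetics to Alzheimer disease risk also stood slightly high at day 30, but with the larger median against day 90. Of 29 tested, 16 had the day 30 mean above both ends (36.0% of all genes) and 3 below both (27.7%), with a median difference of 0.23. The median was 0.14 against day 7 and 0.29 against day 90. The summed level of the list averaged 11670, 10910 and 8017 CPM at days 7, 30 and 90, so the sum lay between the ends. Trem2, Mef2c and Cd33 are in this list and in the homeostatic one. Inpp5d, which encodes the phosphatase SHIP1, had 413, 313 and 445 CPM at day 7, 567, 746 and 563 CPM at day 30, and 420, 505 and 546 CPM at day 90, a difference of 0.51 ± 0.17 (limma adjusted p = 0.965). Every day 30 library lay above the other 6. Cd33, an inhibitory receptor of sialic acids, had 316, 319 and 314 CPM at day 30 and 137 to 331 CPM elsewhere. Among inflammatory and NF-kB genes, 16 of 34 had the day 30 mean above both ends (36.0% of all genes) and 6 below (27.7%). Their median of 0.14 was 0.34 without day 30 replicate 2. Leaving out day 7 replicate 3, day 30 replicate 3 or day 90 replicate 1 gave medians of 0.05, 0.06 and 0.08. The activation marker Cd83 averaged 561 ± 139, 953 ± 229 and 749 ± 248 CPM over the 3 days, and the adhesion gene Icam1 322 ± 85.9, 560.2 ± 118 and 468 ± 109 CPM.

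Among the dips were genes known from choroid plexus and blood vessels and genes of general cell functions. Kl encodes klotho, a protein known for its high level in choroid plexus. It had 74.4, 111 and 85.9 CPM at day 7, 74.0, 41.6 and 45.4 CPM at day 30, and 228, 127 and 77.8 CPM at day 90. Day 30 lay below the other 6, with replicate 2 less than 1 CPM under the lowest day 7 library. The difference of Kl (ENSMUSG00000058488, chromosome 5, 150952607 to 150993817, plus strand) was -1.05 ± 0.28 (limma adjusted p = 0.965), and -0.85 without day 90 replicate 1. Stk39, a kinase that regulates chloride cotransport, followed the same library, with 164 CPM in day 90 replicate 1, 37.5 and 63.9 CPM in the other day 90 libraries, 22.3 to 30.5 CPM at day 30 and 39.1 to 63.4 CPM at day 7.

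In Cdc42ep4 and Cwc15 the day 30 libraries lay close together and well below the rest. Cdc42ep4, an effector of the GTPase Cdc42, had 122, 106 and 102 CPM at day 7, 68.95, 68.96 and 70.7 CPM at day 30, and 139, 111 and 105 CPM at day 90. Its lowest end library stood over 30 CPM above its highest day 30 library, and the difference was -0.70 ± 0.22 (limma adjusted p = 0.965). Cwc15, a splicing factor, had 52.5, 60.7 and 57.0 CPM at day 30 and 76.8 to 101 CPM in the other 6. Hes1, the transcriptional repressor induced by Notch, varied more and came within 4 CPM of an end library. It stood at 95.7, 141 and 81.2 CPM at day 7, 77.5, 66.5 and 50.6 CPM at day 30, and 155, 107 and 117 CPM at day 90 (difference -0.82 ± 0.24). Leaving out 1 library kept Cdc42ep4 between -0.74 and -0.64 and Hes1 between -0.95 and -0.65.

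The transcript 1810037I17Rik, which carries no descriptive symbol in the table and was chosen after its values were seen, had the smallest p of any dip. It stood at 77.3, 60.6 and 40.8 CPM at day 7, 15.7, 26.1 and 23.5 CPM at day 30, and 80.6, 60.9 and 45.7 CPM at day 90. No day 30 library came within 14 CPM of the ends. Its difference (ENSMUSG00000054091, chromosome 3, 122924203 to 122926184, plus strand) was -1.43 ± 0.31 (limma adjusted p = 0.479), with -1.39 against day 7 and -1.47 against day 90. DESeq2 called it at an adjusted p of 0.0162, in a range up to 0.9996 over 21 alternatives, and without 1 library its difference ran from -1.57 to -1.23.

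**Figure D3:**
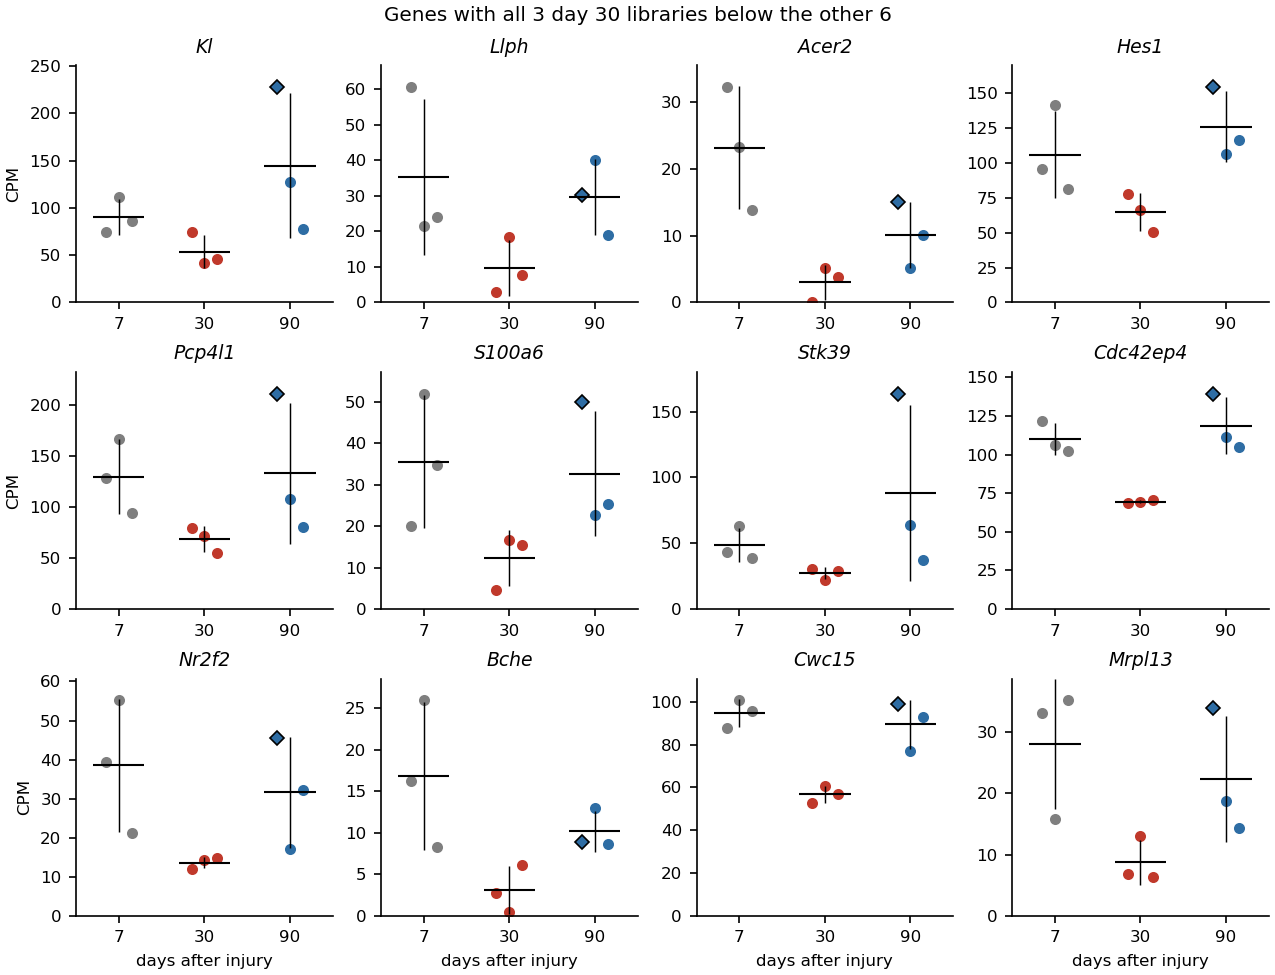
CPM (vertical axes) by days after injury (horizontal axes) for the 12 named dips, with 1 point per library, a bar for the mean and a line for 1 SD (n = 3 per day); the diamond is day 90 replicate 1. The genes were chosen for having all 3 day 30 points below the other 6. The margin is widest in Cdc42ep4 and Cwc15, and the diamond is the highest point in Kl, Hes1, Pcp4l1, Stk39 and Cdc42ep4.

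The other named dips mostly had fewer reads. Llph had 2.93, 18.4 and 7.80 CPM at day 30 and 18.9 to 60.7 CPM elsewhere. Acer2, a ceramidase, had 0, 5.11 and 3.85 CPM at day 30, against 5.12 to 32.3 CPM in the other 6. Mrpl13, a protein of the mitochondrial ribosome, averaged 28.05, 8.73 and 22.3 CPM over the 3 days, Bche, butyrylcholinesterase, 16.8, 3.12 and 10.2 CPM, and S100a6, a calcium-binding protein, 35.6, 12.3 and 32.7 CPM. Nr2f2, a nuclear receptor known from vein and pericyte identity, had 12.0, 14.2 and 14.7 CPM at day 30 and 17.2 to 55.2 CPM elsewhere. Pcp4l1 averaged 130 ± 36.4, 68.8 ± 12.6 and 133 ± 69.2 CPM. Clu and Id1, dips outside these 12, also differed from each end at an unadjusted p under 0.05. Clu, the secreted chaperone clusterin of astrocytes, averaged 122 ± 18.5, 66.0 ± 22.3 and 139 ± 91.1 CPM, and Id1, a target of BMP and TGF-beta signals, 117 ± 28.0, 61.6 ± 11.7 and 129 ± 90.1 CPM. In both, day 90 replicate 1 held the highest level, 242 and 232 CPM, and the differences of -0.92 and -0.88 were -0.67 and -0.62 without it.

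Of the 14 choroid plexus and ependyma markers, 11 had a day 30 mean below both ends and 0 above both, with a median of -0.52, beside 27.7% below both and a median of 0.057 over all genes tested. Of the 14, 4 were lower at an unadjusted p under 0.05 (1.86% of all genes). Besides Kl they were Igfbp2, a binding protein of insulin-like growth factors, Foxj1, the regulator of motile cilia, and Enpp2, which makes lysophosphatidic acid. Foxj1 had 75.5, 44.4 and 40.8 CPM at day 7, 22.5, 17.4 and 15.4 CPM at day 30, and 56.0, 25.0 and 15.7 CPM at day 90, so that 1 day 90 library lay within the day 30 range. The list leaned on day 90 replicate 1. Its summed level there was 30360 CPM, against 8658 to 12320 CPM at day 30, 10470 to 12670 CPM at day 7 and 9505 and 12440 CPM in the other day 90 libraries. Without that library the median was -0.25 and 5 of 14 members stood below both ends.

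The 22 endothelial and pericyte markers showed the same dependence. Their day 30 mean was below both ends in 13 (27.7% of all genes) and above both in 2 (36.0%), with a median of -0.32. Without day 90 replicate 1 the median was -0.11 and 4 of 22 were below both. Without day 7 replicate 3 the median was -0.20. Summed levels were 3518, 2884 and 2513 CPM at day 30, 4256, 5488 and 3285 CPM at day 7 and 6026, 2761 and 2207 CPM at day 90. Cldn5, the tight junction gene of brain endothelium, had 244, 142 and 157 CPM at day 30, against 261, 681 and 258 CPM at day 7 and 388, 188 and 141 CPM at day 90. The part of choroid plexus and vascular RNA in the dips of Kl, Stk39, Nr2f2, Clu and Id1 was not tested.

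**Figure D4:**
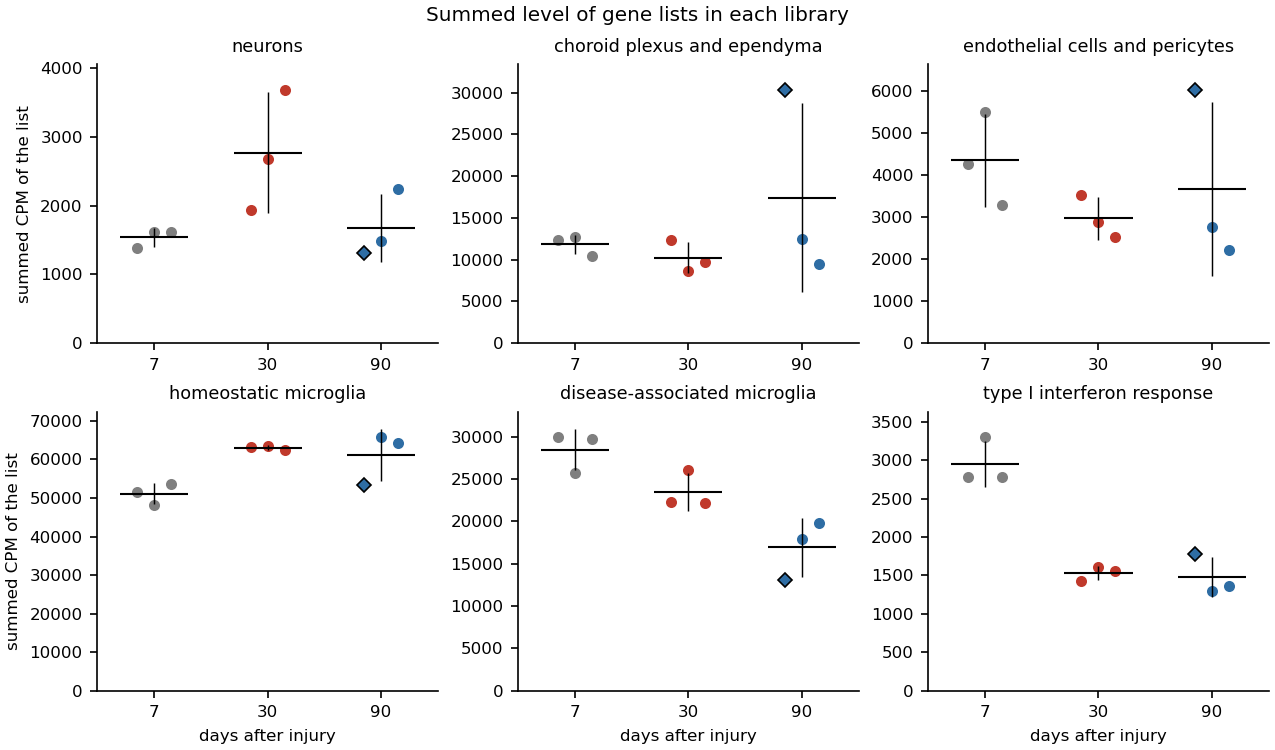
Summed CPM of 6 gene lists (vertical axes) by days after injury (horizontal axes), with 1 point per library, a bar for the mean and a line for 1 SD (n = 3 per day); the diamond is day 90 replicate 1. The neuronal sum is highest at day 30 with 1 day 90 library inside its range, the diamond stands far above all others for choroid plexus, and the interferon sum is low at both days 30 and 90.

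Nuclear genes of oxidative phosphorylation stood slightly low. Of 75 tested, 40 had the day 30 mean below both ends (27.7% of all genes) and 9 above both (36.0%), with a median difference of -0.15. At an unadjusted p under 0.05, 4 were lower (1.86% of all genes). Ndufa2, a subunit of respiratory complex I, had 93.8, 116 and 86.8 CPM at day 7, 64.3, 69.9 and 60.6 CPM at day 30, and 141, 86.9 and 77.3 CPM at day 90, the day 30 libraries below all others. Of this list it was the 1 gene that differed from each end at an unadjusted p under 0.05. Leaving out day 90 replicate 1 gave a list median of -0.09, and leaving out day 30 replicate 3 one of -0.31. Glycolysis and hypoxia genes had 17 of 34 members below both ends (27.7% of all genes) and 9 above (36.0%), with a median of -0.18. Vegfa, the growth factor of blood vessels, had 2.16, 12.7 and 6.31 CPM at day 30, against 10.7 to 18.6 CPM at day 7 and 22.6 to 41.5 CPM at day 90.

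The type I interferon genes had a negative day 30 difference that lay against day 7. Their median was -0.45, and 10 of 40 were lower at an unadjusted p under 0.05 (1.86% of all genes), but the median was -0.97 against day 7 and 0.02 against day 90, near the 0.06 of all genes tested. The summed level was 1431, 1613 and 1556 CPM at day 30, against 2777, 3297 and 2782 CPM at day 7 and 1779, 1295 and 1367 CPM at day 90. Isg15, a ubiquitin-like antiviral protein, averaged 58.9 ± 25.3, 18.0 ± 3.48 and 25.7 ± 9.98 CPM over the 3 days. Ifitm3, which blocks viral entry, had 161, 119 and 108 CPM at day 30, 288, 328 and 209 CPM at day 7, and 278, 96.8 and 130 CPM at day 90. Of the 40 members, 19 had a day 30 mean below both ends (27.7% of all genes) and 1 above both (36.0%). All day 30 libraries lay below the other 6 in 0 of the 40, against 0.751% of all genes, a share too low to read that count.

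Disease-associated microglia genes, a phagocytic and lipid-handling program, stood high against day 90 and low against day 7. In limma 0 genes passed the threshold between days 30 and 7, and 8 (0.0532%) between days 30 and 90. Cst7, Lpl, Spp1, Axl and Apoe were 5 of the 8, all higher at day 30 than at day 90. The list's median difference of 0.15 combined a median of -0.30 against day 7 with one of 0.57 against day 90, and the day 30 mean lay between the ends in 27 of 35 (36.3% of all genes). The median of 0.15 was 0.09 when day 30 replicate 3 or day 90 replicate 1 was left out and 0.04 with a replicate block. It stood at 0.24 to 0.25 when day 30 replicate 2 or day 90 replicate 3 was left out, and at 0.23 in the absence of day 90 replicate 4. Cst7, a cysteine protease inhibitor, had the smallest p of all genes tested (limma adjusted p = 0.479) without a peak. It stood at 215, 141 and 156 CPM at day 7, 141, 203 and 137 CPM at day 30, and 30.2, 16.985 and 41.6 CPM at day 90, so that days 7 and 30 overlapped and day 90 lay apart. Lpl, a lipase, averaged 314 ± 123, 245 ± 72.5 and 55.4 ± 10.8 CPM, and Spp1, osteopontin, 258 ± 93.8, 121 ± 44.1 and 8.51 ± 9.89 CPM over the same days. Klf4, a transcription factor, had 508 ± 12.5, 502 ± 47.3 and 896 ± 146 CPM and a difference of -0.42 that lay against day 90, with -0.02 against day 7. Apoe, the lipid carrier, had 3448, 3921 and 3201 CPM at day 30, against 4283, 5103 and 3701 CPM at day 7 and 1065, 1630 and 2463 CPM at day 90. Axl, a receptor for dying cells, averaged 163.4, 149 and 52.2 CPM over the 3 days.

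**Figure D5:**
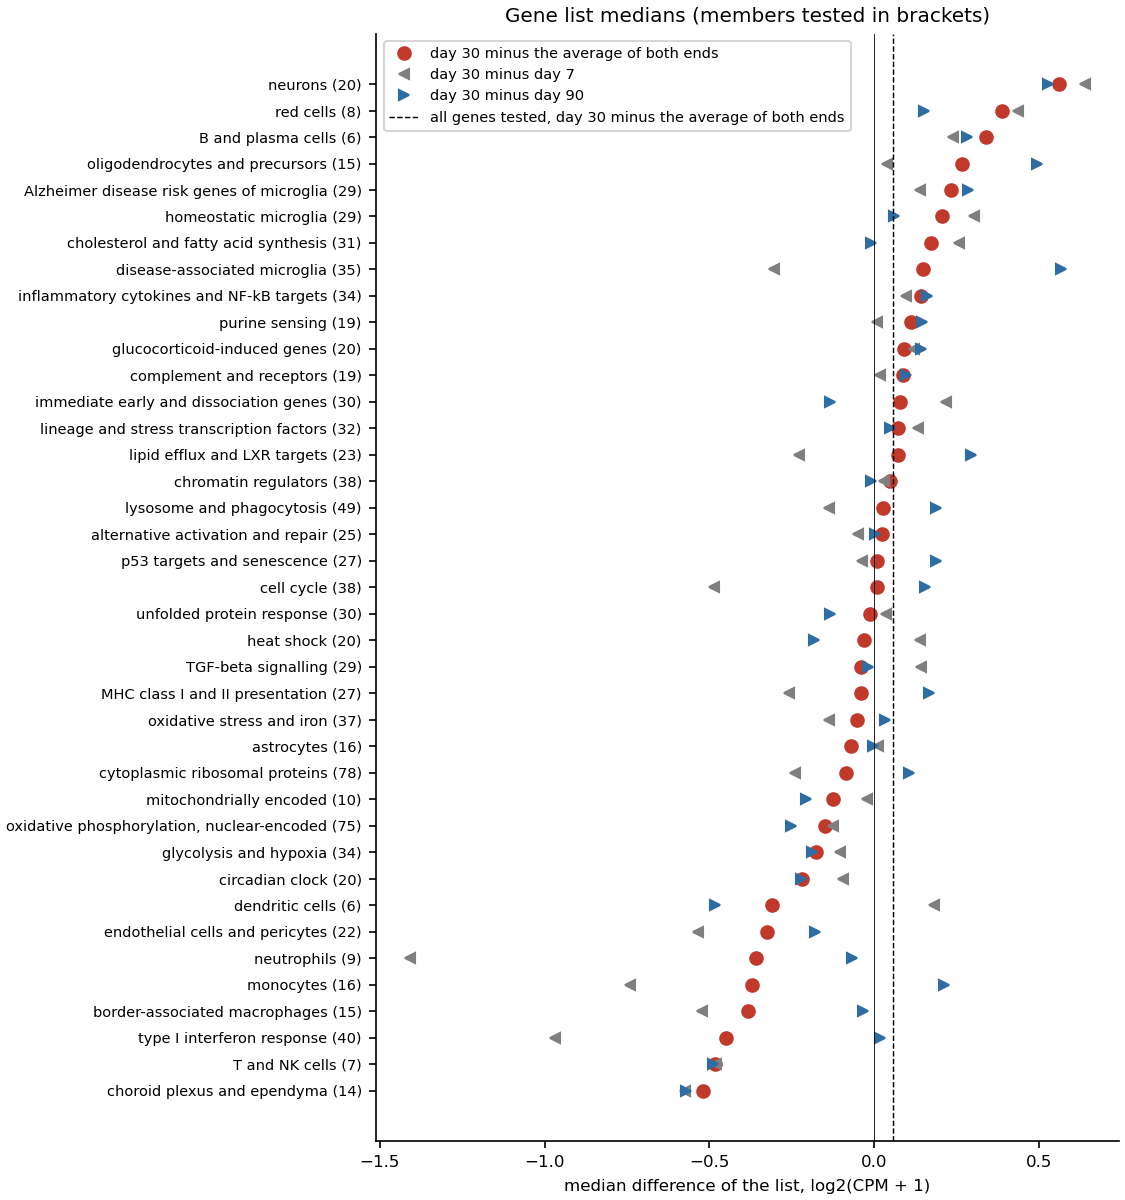
Median log2(CPM + 1) difference (horizontal axis) of the members tested of each gene list (rows) for day 30 against the average of both ends (red), against day 7 (grey) and against day 90 (blue), with the median of all genes tested as a dashed line. Neuronal markers stand above and choroid plexus markers below the dashed line on both sides, whereas interferon genes are low against day 7 and near the line against day 90, and disease-associated genes are low against day 7 and high against day 90.

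Among lists that mark handling and RNA content, the medians were 0.08 for 30 immediate early and tissue dissociation genes, -0.03 for 20 heat shock genes, -0.09 for 78 cytoplasmic ribosomal protein genes and -0.12 for 10 mitochondrially encoded genes. None of these 4 held its size when 1 library was left out. The ranges were -0.003 to 0.12 for immediate early genes, lowest without day 30 replicate 2, and -0.10 to 0.09 for heat shock genes, highest without that same library. They were -0.12 to -0.02 for ribosomal protein genes, nearest 0 without day 90 replicate 4, and -0.19 to -0.001 for mitochondrial genes, nearest 0 without day 90 replicate 1. Against day 7 and day 90, the medians were 0.22 and -0.13 for immediate early genes and 0.14 and -0.18 for heat shock genes. Those of ribosomal protein genes were -0.24 and 0.10, and those of mitochondrial genes -0.02 and -0.21. Monocyte markers had a median of -0.37 (-0.22 without day 30 replicate 3), with -0.74 against day 7 and 0.21 against day 90. Of 16 members, 3 stood above both ends (36.0% of all genes) and 6 below both (27.7%). Their sums were 1152 to 1423 CPM at day 30, 1162 to 1932 CPM at day 7 and 1160 to 2190 CPM at day 90. Border-associated macrophage markers had a median of -0.38, which was -0.08 without day 7 replicate 2. That median lay against day 7, with -0.52, and was -0.03 against day 90. These markers summed to 208 to 251 CPM at day 30, 310.1 to 413 CPM at day 7 and 226 to 316.5 CPM at day 90. Red cell markers stood above both ends in 7 of 8 (36.0% of all genes), and in 3 to 7 when 1 library was left out. Their sums were 468 to 583 CPM at day 30, 305.5 to 598 CPM at day 7 and 295 to 679 CPM at day 90. Oligodendrocyte markers had a median of 0.27, which ran from 0.08 without day 90 replicate 1 to 0.49 without day 30 replicate 2. That median lay against day 90, with 0.50, and was 0.04 against day 7. At an unadjusted p under 0.05 in limma, 2 members were higher (2.98% of all genes) and 2 lower (1.86%). Their summed level went the other way, with means of 3038, 2459 and 3465 CPM at days 7, 30 and 90. Astrocyte markers had one of -0.07 that took a positive sign under 4 alternatives. Markers of neutrophils (9 tested), T and NK cells (7), dendritic cells (6) and B and plasma cells (6) had medians of -0.36, -0.48, -0.31 and 0.34 on few genes. Leaving out 1 library gave -1.18 to 0.08 for neutrophils, -0.85 to -0.23 for T and NK cells, -0.80 to 0.03 for dendritic cells and 0.21 to 0.41 for B and plasma cells, so the first and the third have no settled sign. Against day 7 and day 90, the medians were -1.41 and -0.07 for neutrophils and 0.18 and -0.48 for dendritic cells. Those of T and NK cells were -0.48 and -0.49, and those of B and plasma cells 0.24 and 0.28. The remaining 16 lists of microglial and general functions had medians between -0.22, for the circadian clock, and 0.17, for cholesterol and fatty acid synthesis, and the second turned negative without day 30 replicate 3 or day 90 replicate 1. That of the clock was -0.08 without day 30 replicate 2, and that of the cell cycle, 0.01, was -0.235 without day 90 replicate 1.

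Genes in the 2 directions had different mean levels. The 74 genes higher than each end had a median mean level of 3.86 CPM, and 70.3% of them averaged under 10 CPM, against 41.2% of all genes tested. The 51 genes lower than each end had a median of 27.9 CPM, with 17.6% under 10 CPM. Of the 74, 18 reached 1 CPM in the 3 day 30 libraries and in no other, as did 25 of all genes tested, so these passed the filter only through the level they are scored on. Tgfb3, a transforming growth factor, is one of them, with 5.71, 1.35 and 2.10 CPM at day 30 (113 reads in all) and 0 reads in the other 6 libraries. The split by direction differed between settings. With a filter at 10 CPM 23 genes were higher and 38 lower than each end, with a pseudocount of 0.1 CPM 47 and 54, with one of 5 CPM 99 and 35, with quantile normalization 64 and 64, and on whole reads 20 and 69 with edgeR and 30 and 117 with DESeq2.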

How the data were processed

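The deposited table gives CPM per gene, made by the authors with bcl2fastq, STAR and HTSeq on mm10, per the submitters' processing notes; the sources used here give no version, annotation release or strand setting, so reads of overlapping antisense genes cannot be told apart. Libraries were QuantSeq 3' mRNA libraries, which count transcript ends, per the labels' protocols. Dividing each column by the CPM of 1 read gave whole reads for 100% of values (tolerance 1e-06), used for edgeR and DESeq2. The CPM of 3 reads, given as depth, covers counting error only. Each library came from 1 of 9 mice, per the labels.

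Values were analysed as log2(CPM + 1), a pseudocount of 1 CPM. In R 4.3.3, limma 3.58.1 (lmFit, eBayes with a trend; 6 residual and 28.4 prior degrees of freedom) fitted 1 mean per day over all 9 libraries, so the 3 days share an estimate of spread. Tests were two-sided with Benjamini-Hochberg adjustment over 15041 genes and a threshold of 0.05. The limma, edgeR and DESeq2 fits were also run on simulated counts, and the outcome of that run is not used here. Changes were planted in abundant genes only, so that run does not cover genes with few reads. Alternatives used edgeR 4.0.16 (quasi-likelihood, TMM) and DESeq2 1.42.0. Replicate numbers were not treated as pairs.

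The members and 39 gene lists were chosen with earlier results of these data known. Genes were named by a rule. As 0 passed, it took up to 12 peaks and 12 dips of smallest p among genes with the day 30 libraries wholly beyond the other 6 and a day mean of at least 10 CPM, without predicted models, then up to 4 members per list, the most abundant marker of each cell type and 8 microglial genes. Exceptions are said to be chosen after their values were seen. Positions are from GENCODE M21 (mm10), which holds 49326 of the 49671 IDs. Counts of ribosomal protein and haemoglobin genes may be shared with near-identical copies and are uncertain. The labels tie each library to a day but name no sorting or sequencing batch.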

Additional observations from a re-analysis of the deposited data

How the results depend on the processing

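The count of genes past the threshold stayed at 0 in limma under every other scaling, filter, pseudocount and left-out library tried, and in edgeR; with DESeq2 it was 12, of which 6 stood above both ends and 3 below both in its own estimates. Several of the DESeq2 calls rest on libraries at 0 reads, among them Tfec, Ptchd4, Sorcs3, Lrtm2 and Zfp119a. Genes that differed from each end numbered 61 with a filter at 10 CPM, 299 with no filter and 12 at an unadjusted p under 0.01, against 125, and 90 to 177 without 1 library. Without day 90 replicate 4, 94 were higher and 83 lower, and with no filter 246 and 53. The cause was not tested.

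The day 30 difference of Cx3cr1 was -0.003449 with array quality weights, -0.048 with quantile normalization and -0.059 with the replicate block, and it ran from -0.062 to 0.16 when 1 library was left out. That of Rian ran from -0.40 to 0.43 in the same way, with -0.02 when day 7 replicate 2 and -0.10 when day 90 replicate 3 was left out. Libraries that share a replicate number correlated by -0.0446 to 0.0389 in their deviations from the day means. Those of different numbers, on different days, correlated by -0.0578 to 0.0409. With 3 libraries per day these values cannot decide whether a number marks mice handled together. With a replicate block 0 genes passed and 103 differed from each end, 67 higher and 36 lower; day 90 replicate 1 shares its number with no other library and adds nothing in that fit. Each library held enough reads for 3 reads to stay under 1 CPM, which covers counting error only. Some genes well above 1 CPM in 1 library had no reads in others of that day. At day 7, Zfp119a had 15.9, 0 and 0 CPM and Tfec 0, 0 and 11.0 CPM.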
